A study of Mus musculus with 6 samples.

Results

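The imprinted growth genes described here are Cdkn1c, H19, Dlk1, Meg3, Peg3, Grb10, Plagl1, Mest, Ndn and Igf2r, a set of 10 listed by symbol. Of these, 9 had a probe with a single gene symbol among the 22180 genes measured, and the probe with the highest mean stands for each gene. H19, a maternally expressed long non-coding RNA, is listed only on a probe that also carries a second symbol and was not analysed here. An imprinted gene is transcribed mainly from the copy inherited from one parent, and the arrays do not separate the parental copies.

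The samples were bone marrow LSK cells (lineage-negative, Sca-1-positive, Kit-positive, the gate of blood stem cells and multipotent progenitors) of C57Bl6 mice at postnatal day 27. All mice carried Tg(Cdh5-Cre/ERT2), which encodes a Cre recombinase that tamoxifen activates and that the promoter of Cdh5, the endothelial cadherin gene, drives, together with the Rosa 26 YFP reporter, and were induced on days 1, 2 and 3 after birth. The 3 YFP-positive samples hold cells with Cre activity in themselves or in an ancestor, and the 3 YFP-negative samples hold the unmarked LSK cells of the same kind of mouse. The comparison asks how the marked cells differ from the unmarked ones. Whether replicates are separate animals or pools is not given in the sources used here, so the p-values reflect the spread among these 6 samples alone, and that spread may be technical.

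Genomic imprinting is known for its control of fetal and placental growth. Paternally expressed genes such as Igf2, Mest and Peg3 tend to promote growth, and maternally expressed genes such as Cdkn1c, Grb10 and Igf2r tend to restrain it. In blood, several of these genes are known as a network active in quiescent long-term stem cells, in which Cdkn1c, the cyclin-dependent kinase inhibitor p57, holds cells out of the cycle. Several are also transcribed in endothelium and stroma.

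Values are log2 expression per probe. The median of all deposited values was 3.65, and a level near or below it cannot be told from background. Levels of different probes are not compared with each other. All 15 endothelial markers examined rose in YFP-positive cells, and the log2 of their summed linear values ran from 13.43 to 14.01 against 8.91 to 9.96 in YFP-negative cells. Of 11 blood progenitor markers 8 fell and 0 rose (sums 9.47 to 10.07 against 11.87 to 12.12), and of 14 leukocyte markers 2 fell and 0 rose. A rise or fall here is a limma adjusted p under 0.05, which 2.88% of all genes reached upwards and 1.96% downwards. Without moderation of the variance 7 endothelial, 1 blood progenitor and 1 leukocyte marker passed. With a variance trend the numbers were 14, 6 and 2. The leukocyte sums of YFP-positive replicates 1 and 2 were 11.02 and 11.38, while replicate 3, at 13.06, lay above the YFP-negative range of 12.77 to 12.84. Kit, which defines the gate, measured 6.56 to 7.06 in YFP-positive and 7.57 to 7.96 in YFP-negative samples (1.86-fold lower, limma adjusted p = 0.0496), and Ly6a, which encodes Sca-1, was not analysed here. The samples labelled YFP-positive LSK cells thus carried endothelial transcripts beside lower blood progenitor markers, and the label is used here as the name of the sort only. In such bulk samples fewer cells of a type and less RNA per cell cannot be told apart. The part that these markers have in the results below was not tested.

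Among the 9 measured imprinted growth genes, limma's test (adjusted p under 0.05) called 2 higher in YFP-positive cells and 0 lower, and left 7 without a call. The count was 1 with a variance trend, 1 with the replicate number as a block and 0 without moderation of the variance. The genes that rose were Cdkn1c and Igf2r, a pair of maternally expressed genes that restrain growth. By the same rule 4.84% of all 22180 genes changed, 2.88% upwards and 1.96% downwards. At an unadjusted p below 0.05, 4 of the 9 were higher (Cdkn1c, Igf2r, Mest and Dlk1), against 7.79% of all genes. The median difference of the 9 genes was 0.31 on the log2 scale (YFP-positive minus YFP-negative), against -0.01 over all genes. In 4 of the 9 genes every YFP-positive array lay above every YFP-negative array, which was the case for 10.8% of all genes. These 4 were Cdkn1c, Igf2r, Mest and Dlk1, and the opposite order was seen in 0 of the 9, against 11.9% of all genes. The counts of higher genes come from these same 4, and Dlk1 lay wholly below the median of all values. The members were chosen with earlier results of these data known, so the shares beside all genes are a description only. Counted by the parental copy known to be active, 2 of 4 measured maternally expressed genes and 0 of 5 paternally expressed genes rose. The difference between these kinds was not tested. Mest, with the largest difference of the 9 (1.58), and Dlk1 are paternally expressed, and in both the groups did not overlap.

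**Figure D1:**
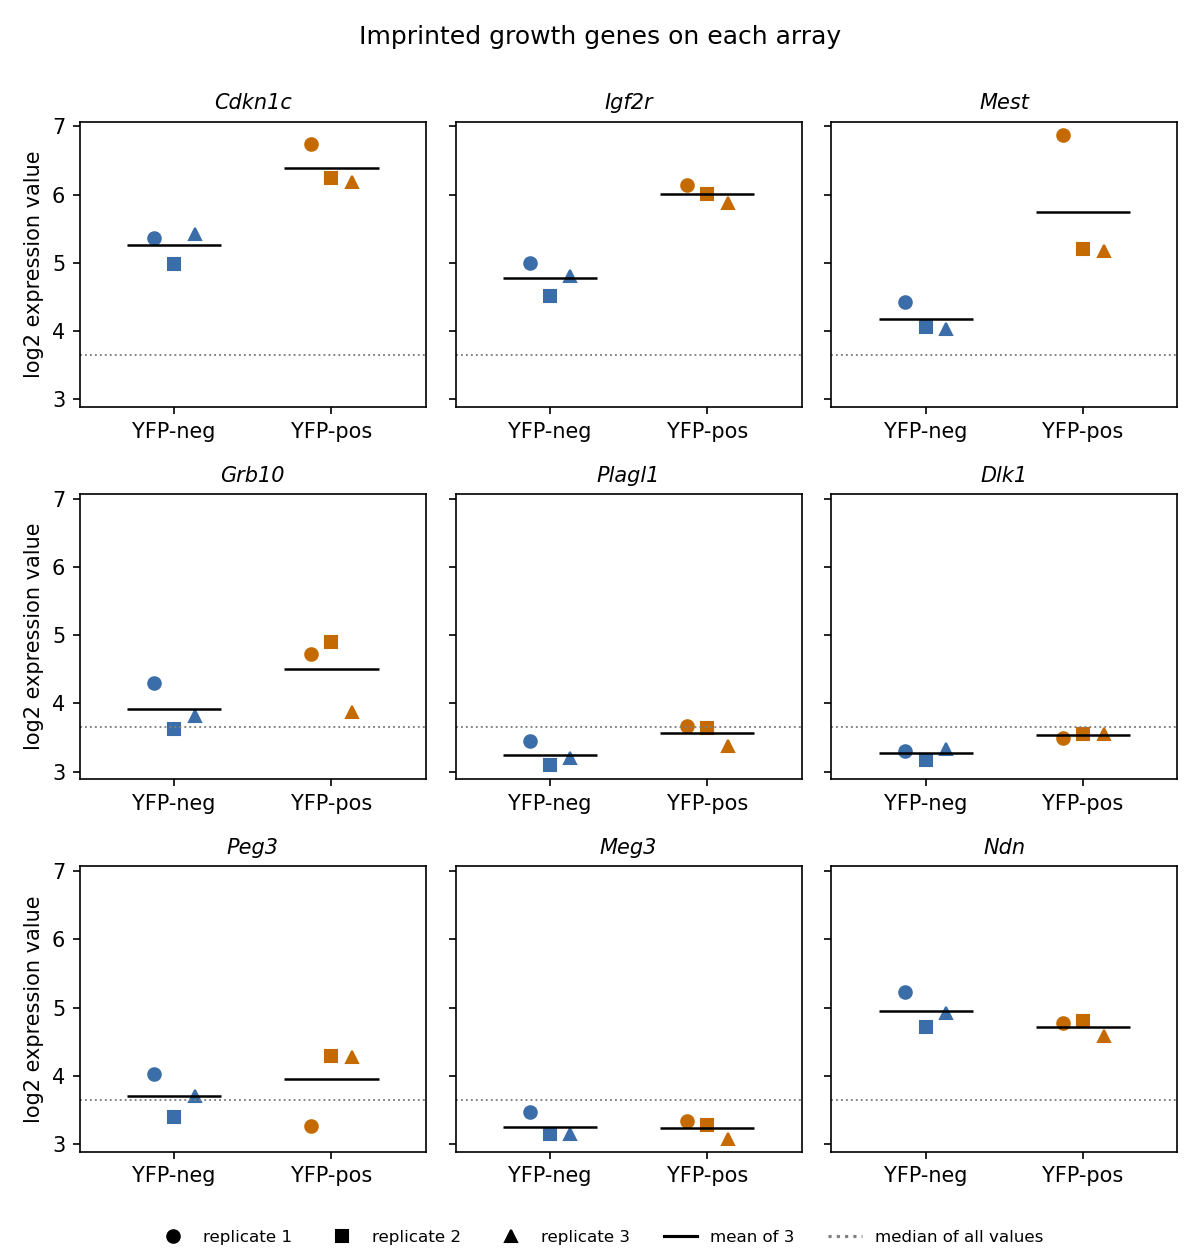
Log2 expression value of each imprinted growth gene in YFP-negative (blue) and YFP-positive (orange) LSK samples, with 1 symbol per replicate, a black line at the mean of 3 arrays and a dotted line at the median of all values (3.65). Cdkn1c, Igf2r, Mest and Dlk1 show no overlap between populations, and values are to be compared within a panel only.

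Cdkn1c encodes p57, which binds and blocks cyclin-dependent kinases of the G1 phase. Its values were 6.74, 6.24 and 6.18 in YFP-positive replicates 1, 2 and 3 and 5.37, 4.98 and 5.43 in YFP-negative replicates 1, 2 and 3. The groups did not overlap, and replicate 1 was the highest YFP-positive array. The means of 6.39 ± 0.31 and 5.26 ± 0.25 (SD, n = 3 each) differed by 1.13 ± 0.20 (SE), or 2.18-fold with a 95% interval of 1.55 to 3.08 (limma adjusted p = 0.0374). The rise kept its size when arrays were left out in turn, at 0.95 to 1.23. It passed the threshold only in the fit without YFP-positive replicate 3, the YFP-positive array with the highest leukocyte sum (adjusted p = 0.0493), and missed it in the other 5 (0.0750 to 0.109). On all 6 arrays it missed the threshold with a variance trend (adjusted p = 0.0639) and without moderation of the variance (0.157). It also missed it with the replicate number as a block (0.0630).

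Igf2r encodes the receptor that carries mannose 6-phosphate-tagged enzymes to lysosomes and takes up the growth factor Igf2 for degradation. It measured 6.14, 6.01 and 5.88 in YFP-positive and 5.0, 4.52 and 4.81 in YFP-negative samples. The YFP-positive arrays were tightly grouped and all above the YFP-negative ones. The means of 6.01 ± 0.13 and 4.78 ± 0.24 differed by 1.23 ± 0.16 (SE), a 2.35-fold rise (95% interval 1.80 to 3.06, limma adjusted p = 0.0126). Igf2r passed in each of the 6 fits on 5 arrays (adjusted p = 0.0214 to 0.0487) with a difference of 1.10 to 1.34, and lost its call without moderation of the variance (0.0847).

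Mest, a paternally expressed gene for a protein of the alpha/beta hydrolase fold family, differed by 1.58 ± 0.47 (SE), short of the threshold (limma adjusted p = 0.151). It measured 6.88, 5.21 and 5.17 in YFP-positive and 4.43, 4.06 and 4.03 in YFP-negative samples. All YFP-positive arrays lay above all YFP-negative arrays, and YFP-positive replicate 1 stood 1.71 above the lowest of its group. The 95% interval of the ratio ran from 1.34 to 6.65. Without YFP-positive replicate 1 the difference was 1.02 (adjusted p = 0.0577), over 1.5 times smaller, and leaving out the other arrays gave 1.51 to 1.87.

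An intron of Mest holds the hairpin of Mir335, whose probe allows the same arrays to be read at a second place in the locus. The mature miRNAs are shown because they are the products of that hairpin, from RefSeq (GRCm38.p6, plus strand, chr6:30741314-30741336 and chr6:30741354-30741375), with the seed, bases 2 to 8, in capitals.
mmu-miR-335-5p: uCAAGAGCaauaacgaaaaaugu
mmu-miR-335-3p: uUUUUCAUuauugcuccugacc
The Mir335 probe measured 4.2, 2.75 and 2.93 in YFP-positive and 2.68, 2.75 and 2.26 in YFP-negative samples. YFP-positive replicate 1 was the highest array for the hairpin as it was for Mest, and the other 5 arrays lay below the median of all values. The difference of 0.73 ± 0.40 (SE) did not pass (limma adjusted p = 0.449) and was 0.27 without YFP-positive replicate 1. The probe does not measure the mature miRNA.

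A table of promoter sequences from RefSeq (GRCm38.p6, 250 bases before to 50 after each listed start) held 12 windows for 8 members. It held none for Cdkn1c or H19, so the CpG and motif counts do not cover those genes. Of the 12 windows, 11 held more CpG dinucleotides than the median window. A pair of Mest windows overlaps almost wholly, so that promoter enters these counts and those of the motifs more than once. The member windows held 1 to 45 CpG with a median of 13, against 7 over 32851 windows of the same length. The Igf2r window held 34, a number reached by 7.73% of all windows, and the richest Mest window held 17, reached by 31.4%. The 250 bases before the start are shown for these genes because Igf2r rose and Mest had the largest difference among the members, with every CpG, the site of DNA methylation, in capitals. Igf2r lies on the minus strand at chr17:12769707-12769956 and Mest on the plus strand at chr6:30737800-30738049.
Igf2r: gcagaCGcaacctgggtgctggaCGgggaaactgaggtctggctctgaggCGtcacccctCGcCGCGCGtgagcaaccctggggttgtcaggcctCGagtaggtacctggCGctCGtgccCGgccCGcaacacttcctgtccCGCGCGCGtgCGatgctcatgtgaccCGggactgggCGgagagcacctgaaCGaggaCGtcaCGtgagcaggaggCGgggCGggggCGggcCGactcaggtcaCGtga
Mest: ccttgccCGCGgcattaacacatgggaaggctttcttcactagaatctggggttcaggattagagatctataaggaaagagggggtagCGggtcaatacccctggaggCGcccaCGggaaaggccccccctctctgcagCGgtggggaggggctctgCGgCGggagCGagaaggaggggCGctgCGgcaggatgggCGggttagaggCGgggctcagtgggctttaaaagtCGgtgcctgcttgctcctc
Methylation was not analysed here, and the sequences are background to the loci. Of the other motifs searched on both strands, GGGCGG, which contains a CpG, was in 7 of the 12 windows and in 35.7% of all windows. CACGTG, which also contains a CpG, was in 2, those of Igf2r and Plagl1, and in 7.15% of all. TGTTTAC was in the Dlk1 window (3.65% of all) and TATAAA in a Meg3 window (13.6% of all). The ETS motif CCGGAAG was in 0 of the 12 and in 8.86% of all windows. The GATA motif AGATAAG was in 0 of the 12 and in 3.04% of all. The AP-1 motif TGACTCA was in 0 of the 12 and in 5.20% of all.

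Plagl1 encodes a zinc finger factor that regulates other imprinted genes, and its 2 probes disagreed. The brighter probe, which represents the gene here, measured 3.67, 3.64 and 3.38 in YFP-positive and 3.45, 3.10 and 3.20 in YFP-negative samples. The groups overlapped close to the median of all values, and the difference of 0.31 ± 0.14 (SE) did not pass (limma adjusted p = 0.350). On the other probe YFP-positive replicate 3 measured 6.83, while the other 5 arrays lay between 1.95 and 3.12. That array was thus 3.71 above the next highest on the log2 scale, and the brighter probe showed no such gap. With the mean of both probes the difference was 1.07 (adjusted p = 0.431), and the high array of the other probe enters that mean.

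**Figure D2:**
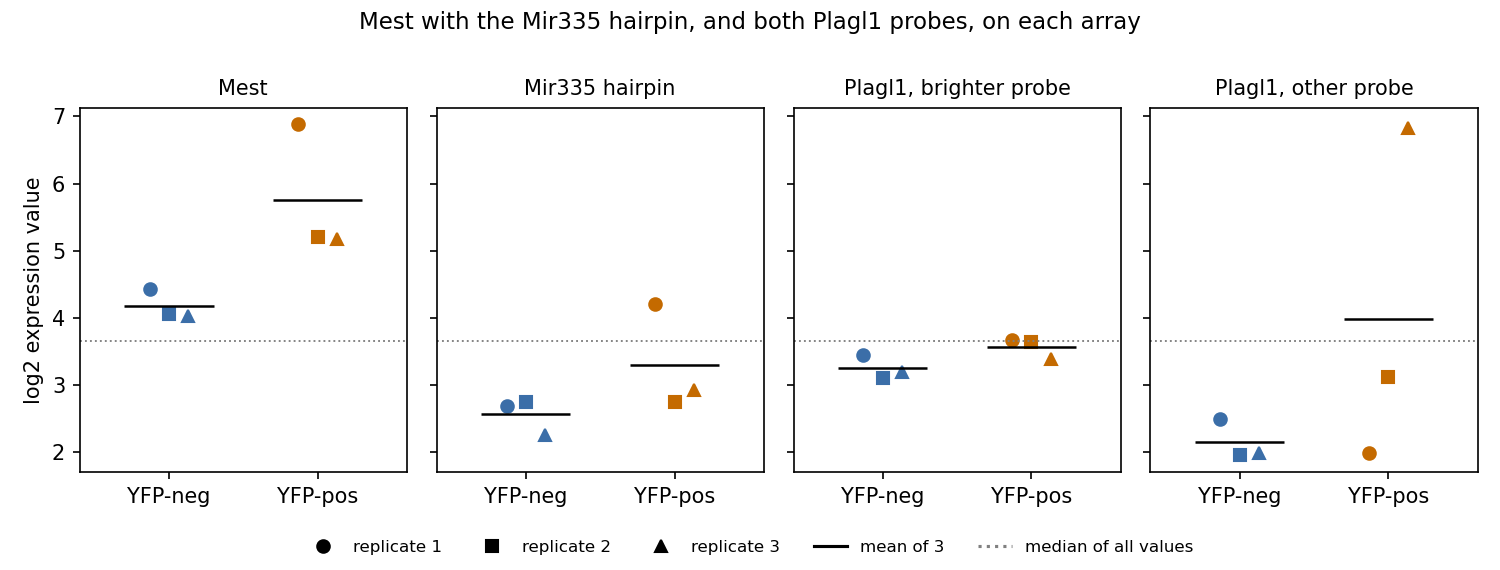
Log2 expression values of Mest, of the Mir335 hairpin in its intron, and of the brighter and the other Plagl1 probe in YFP-negative (blue) and YFP-positive (orange) samples, with 1 symbol per replicate, a line at the mean of 3 and a dotted line at the median of all values. YFP-positive replicate 1 is the highest array for Mest (6.88) and Mir335 (4.2), and YFP-positive replicate 3 stands alone at 6.83 on the other Plagl1 probe.

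Grb10, an adaptor that dampens signalling of the insulin and Igf1 receptors, measured 4.72, 4.90 and 3.88 in YFP-positive and 4.30, 3.63 and 3.82 in YFP-negative samples. YFP-positive replicate 3 lay among the YFP-negative values, and the other pair above them. YFP-negative replicate 2 lay below the median of all values and YFP-negative replicate 3 near it. The difference was 0.58 ± 0.31 (SE), with a ratio of 1.5 (95% interval 0.883 to 2.55, limma adjusted p = 0.435). Without YFP-positive replicate 3 it was 0.89 (adjusted p = 0.114), and without YFP-positive replicate 2 it was 0.39.

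Dlk1, a membrane protein related to Notch ligands, and Meg3, a long non-coding RNA, lie in a single imprinted cluster and are expressed from opposite parental copies. Dlk1 measured 3.50, 3.55 and 3.56 in YFP-positive and 3.30, 3.17 and 3.34 in YFP-negative samples. These values did not overlap but all lay below the median of all values, and the difference of 0.26 ± 0.10 (SE) did not pass (limma adjusted p = 0.260). Meg3 measured 3.34, 3.28 and 3.08 against 3.47, 3.15 and 3.14. The groups overlapped below the median, with a difference of -0.02 and a ratio whose 95% interval was 0.776 to 1.25 (adjusted p = 0.970).

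Peg3, a zinc finger protein, measured 3.27, 4.29 and 4.28 in YFP-positive and 4.02, 3.39 and 3.71 in YFP-negative samples. Both YFP-positive replicate 1 and YFP-negative replicate 2 lay below the median of all values. YFP-positive replicate 1 was the lowest of all 6 arrays, and the difference of 0.23 ± 0.32 (SE) did not pass (limma adjusted p = 0.806). Without that array it was 0.57 (adjusted p = 0.305), and without YFP-positive replicates 2 and 3 in turn it was 0.06 and 0.07. Ndn encodes necdin, a growth suppressor of the MAGE family that is known to act in blood stem cells. It measured 4.77, 4.80 and 4.59 in YFP-positive and 5.23, 4.71 and 4.92 in YFP-negative samples, which overlapped. The difference of -0.23 ± 0.16 (SE) did not pass (adjusted p = 0.572), with an interval of the ratio from 0.650 to 1.12. It was -0.09 without YFP-negative replicate 1 and -0.35 without YFP-negative replicate 2.

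**Figure D3:**
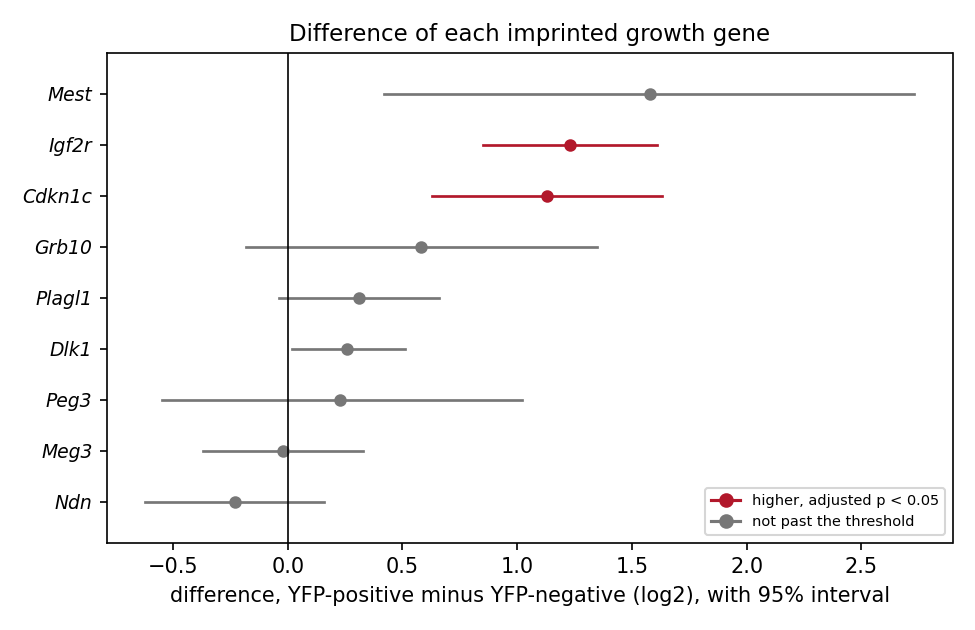
Difference between YFP-positive and YFP-negative samples of each imprinted growth gene on the log2 scale, with its 95% interval from the moderated limma fit, in red where the adjusted p was under 0.05 and grey where it was not. Igf2r (1.23) and Cdkn1c (1.13) passed, while Mest had the largest difference (1.58) and the widest interval.

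The loci around the members were then read from the same fit. The 4 measured genes on each side of every member in RefSeq order gave 64 neighbours that are not members, of which 0 rose and 2 fell, with a median difference of 0.04. Among all genes 2.88% rose and 1.96% fell, and the count is not read as a result about these loci. The pair that fell lies beside Plagl1, and both are named because the count was small, after their values were seen. Ltv1, a factor of ribosome assembly, was 2.62-fold lower in YFP-positive cells (limma adjusted p = 0.0181), and Fuca2, a fucosidase, 2.97-fold lower (adjusted p = 0.0329). Beside Cdkn1c the potassium channel gene Kcnq1 measured 4.63, 5.33 and 5.77 against 4.45, 4.47 and 4.28 and did not pass (adjusted p = 0.201). Its antisense RNA Kcnq1ot1, which silences Cdkn1c on the paternal copy, had a difference of -0.37 ± 0.18 (SE, adjusted p = 0.366). Phlda2, a growth-restraining gene of the same domain, had one of -0.39 ± 0.31 (adjusted p = 0.625). Phlda2 measured 2.71, 2.68 and 3.0 against 3.16, 2.6 and 3.8, and only YFP-negative replicate 3 lay above the median of all values. Airn, the RNA that silences Igf2r on the paternal copy, measured 3.38, 3.38 and 3.50 against 3.19, 3.21 and 3.29, all below the median of all values (adjusted p = 0.418).

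A list of 55 further imprinted genes had 47 with a value, of which 1 rose, 3 fell and 43 did not pass, with a median of 0.06. Many genes on it are imprinted in some tissues only. Among all genes measured 2.88% rose and 1.96% fell. Cd81, a tetraspanin of the same chromosome domain as Cdkn1c, measured 11.51, 11.24 and 11.08 in YFP-positive and 10.08, 9.71 and 10.01 in YFP-negative samples. The groups were far apart and Cd81 rose 2.53-fold (1.34 ± 0.16, limma adjusted p = 0.0113). Atp10a, a phospholipid flippase, fell 2.59-fold (adjusted p = 0.0171), Ppp1r9a, a cytoskeletal scaffold of protein phosphatase, 2.01-fold (adjusted p = 0.0293), and Ube3a, a ubiquitin ligase, 1.68-fold (adjusted p = 0.0433). Atp10a measured 4.80, 4.79 and 5.02 against 6.17, 6.62 and 5.95, and Ube3a 7.84, 7.75 and 7.62 against 8.30, 8.46 and 8.71, with no overlap in either. The call of Atp10a was lost when YFP-positive replicate 1 or 2 or YFP-negative replicate 1 was omitted (adjusted p up to 0.0636). Ppp1r9a passed on 5 arrays only without YFP-positive replicate 3 (adjusted p otherwise up to 0.101), and Ube3a in none of these fits (up to 0.128). Ube3a also had a difference of -0.50 as the mean of its probes (adjusted p = 0.129). Without moderation of the variance all 4 lost their calls, Cd81 with an adjusted p of 0.0819.

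Next to the threshold stood Tfpi2, a protease inhibitor of the extracellular matrix, and Tspan32, a tetraspanin of blood cells. Tfpi2 measured 6.40, 5.27 and 5.85 against 4.55, 4.19 and 4.48 (limma adjusted p = 0.0512). Tspan32, which lies in the same domain as Cd81, measured 3.62, 3.98 and 3.79 against 6.24, 5.46 and 4.81 (adjusted p = 0.0559). Both had no overlap between groups, in opposite directions. Each passed without a single array, Tfpi2 without YFP-positive replicate 2 (adjusted p = 0.0302) and Tspan32 without YFP-negative replicate 3 (0.0326). Both also passed with a variance trend (adjusted p = 0.0471 and 0.0400) and with genes of low values left out of the fit (0.0360 and 0.0367).

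**Figure D4:**
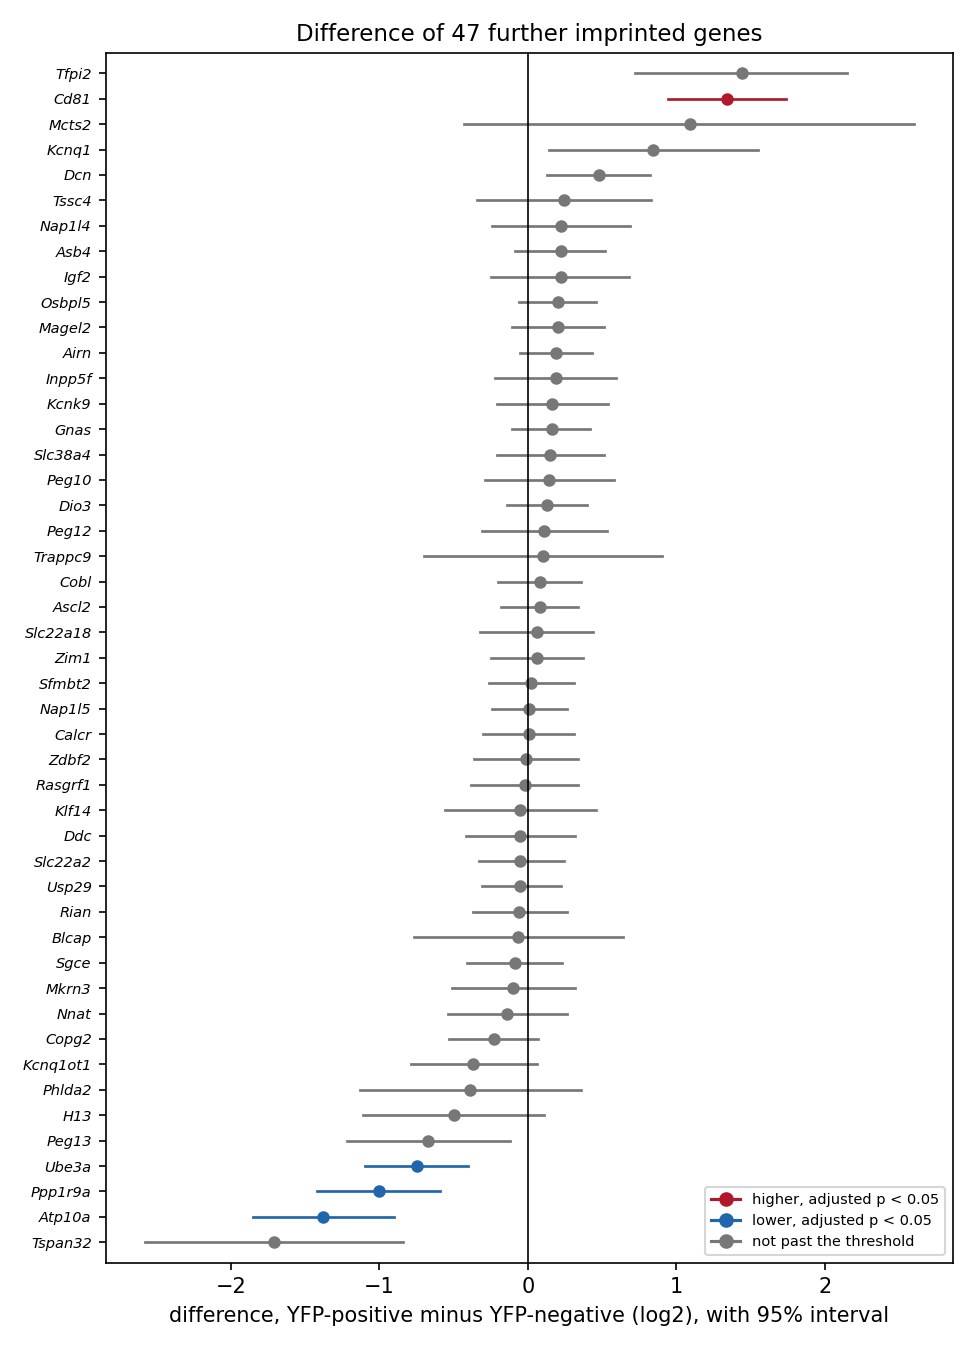
Difference between YFP-positive and YFP-negative samples of 47 further imprinted genes on the log2 scale, with 95% intervals, in red where a gene rose, blue where it fell and grey where the adjusted p was not under 0.05. Cd81 rose (1.34), Atp10a, Ppp1r9a and Ube3a fell (-1.38, -1.0 and -0.75), and most others lie close to 0.

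The imprinted clusters also hold miRNA hairpins, most of them in the region that follows Meg3. Of 37 with a value, 0 passed limma's test (1 with an unadjusted p below 0.05, 0 without moderation of the variance). An unadjusted p that low was held by 17.2% of all genes. The median difference was 0.07, and 25 hairpins had means at or below the median of all values.

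Cdkn1c was the only cyclin-dependent kinase inhibitor of the 7 examined to pass the test. Of the 6 others, 0 passed limma's test (0 with an unadjusted p below 0.05, 0 without moderation of the variance), and whether their differences are unlike that of Cdkn1c was not tested. The test called 4.84% of all genes, and 17.2% had an unadjusted p below 0.05. Cdkn1b, the paralogue p27 that is known to share the task of p57 in stem cells, measured 6.46, 6.49 and 7.17 in YFP-positive and 7.73, 8.17 and 6.54 in YFP-negative samples, which overlapped (-0.77 ± 0.44, adjusted p = 0.473). The difference was -0.43 without YFP-negative replicate 2 and -1.24 without YFP-negative replicate 3. Cdkn1a, the paralogue p21, measured 8.47, 7.99 and 7.88 against 8.64, 7.34 and 8.52 (-0.05 ± 0.38, adjusted p = 0.970), and its sign turned under quantile normalization. For the INK4 inhibitors the differences were -0.03 for Cdkn2a, 0.13 for Cdkn2b, 0.23 for Cdkn2c and 0.19 for Cdkn2d, with adjusted p from 0.623 to 0.958. The Cdkn2a means of 3.56 in YFP-positive and 3.59 in YFP-negative samples lay below the median of all values, so its level cannot be told from background. The 95% interval of Cdkn1a lay within -0.97 and 0.86 and that of Cdkn1b within -1.85 and 0.31, so a fall of Cdkn1b as large as the rise of Cdkn1c is within its range.

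Ligands, receptors and binding proteins of the insulin-like growth factor axis, on which Igf2r and Grb10 act, had 4 of 12 genes higher and 0 lower, with a median of 0.23. For all genes the shares were 2.88% higher and 1.96% lower. Igf2, the ligand that Igf2r clears, measured 4.10, 4.55 and 4.03 against 4.27, 3.91 and 3.85, and the groups overlapped (0.22 ± 0.19, limma adjusted p = 0.669). Insr, the insulin receptor that Grb10 binds, rose 5.16-fold (2.37 ± 0.23, adjusted p = 0.00488), and Igf1 rose 1.86-fold (adjusted p = 0.0428). The binding proteins Igfbp7 and Igfbp3 rose 72.1-fold and 5.97-fold (adjusted p = 0.000273 and 0.0113). Igfbp4 had a difference of 1.58 ± 0.35 (adjusted p = 0.0649, and 0.0432 with genes of low values left out) and Irs2, an insulin receptor substrate, of -0.65 ± 0.26 (adjusted p = 0.284). On 5 arrays Igf1 never passed, whichever array was omitted (adjusted p up to 0.124), and the other 3 always did. Without moderation of the variance Insr (adjusted p = 0.0678), Igfbp3 (0.0979) and Igf1 (0.153) lost their calls and Igfbp7 kept it (0.0173). Beside these genes, the 15 endothelial markers had a median difference of 3.51.

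Of 14 genes that set, keep or remove the methylation of imprinted loci, 0 rose, 3 fell and 11 did not pass, with a median of -0.35. The shares of all genes were 2.88% upwards and 1.96% downwards. Dnmt1, the maintenance DNA methyltransferase, measured 7.26, 7.54 and 7.68 in YFP-positive and 8.86, 8.95 and 8.72 in YFP-negative samples. The groups were apart on every array, and Dnmt1 fell 2.56-fold (-1.36 ± 0.15, limma adjusted p = 0.00698) and passed whichever array was omitted. Tet1, which oxidises methylated cytosine, fell 3.95-fold (adjusted p = 0.0197), and Trim28, the corepressor recruited to methylated imprinting control regions, 2.12-fold (adjusted p = 0.0240). On 5 arrays Tet1 passed only without YFP-positive replicate 3 or YFP-negative replicate 3 (adjusted p otherwise up to 0.0806), and Trim28 only without YFP-negative replicate 3 (up to 0.0940). Without moderation of the variance all 3 lost their calls, Dnmt1 with an adjusted p of 0.0608, and with a variance trend Trim28 did (0.0683). Dnmt3b had a difference of -0.93 ± 0.20 (adjusted p = 0.0574) and Tet2 of 1.0 ± 0.21 (adjusted p = 0.0585), and neither passed. With genes of low values left out of the fit both did (adjusted p = 0.0487 and 0.0474), and Dnmt3b also did without YFP-positive replicate 3 (0.0196). The 11 blood progenitor markers had a median difference of -1.80 in the same comparison.

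The genes whose values over the 6 arrays were most like those of Cdkn1c were sought among 12854 other genes with a mean above the median of all values. The 5 with the highest Pearson correlation, all above 0.99, were Hey1, a target of Notch signalling (r = 0.996), Apold1 (0.992), Ppp2r5b (0.992), Bambi, a decoy receptor of the TGF-beta family (0.991), and Plekhm3 (0.991). Hey1 measured 6.84, 6.19 and 6.32 in YFP-positive and 5.15, 4.69 and 5.21 in YFP-negative samples, with the same order of arrays as Cdkn1c among the YFP-negative samples, while among the YFP-positive ones replicate 1 was highest for both genes and replicates 2 and 3 changed places. Of the 5 genes, Hey1 and Apold1 rose (limma adjusted p = 0.024 and 0.0482). Ppp2r5b (adjusted p = 0.0725), Bambi (0.0504) and Plekhm3 (0.411) did not pass, and Plekhm3 differed by only 0.19. All 6 points share the split between the populations, and r was above 0.95 for 207 genes, so the likeness is a description. Among the other members above the median, Igf2r had r = 0.974 (place 62), Mest 0.926, Grb10 0.719, Peg3 0.113 and Ndn -0.366.

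The measured gap between populations in Cdkn1c and Igf2r stands beside the markers of other marrow cells, of which a lineage-negative sort is meant to remove neutrophils, macrophages and erythroid cells. Stromal markers, of which 4 of 14 had means at or below the median of all values, had sums of 8.22 to 8.80 in YFP-positive and 7.77 to 8.21 in YFP-negative samples, and 0 of 14 passed limma's test (8 with an unadjusted p below 0.05, 0 without moderation). An unadjusted p below 0.05 was held by 17.2% of all genes. In 6 of the 14 every YFP-positive array lay above every YFP-negative one, and in 2 below. This was so for 10.8% and 11.9% of all genes. Macrophage sums were 10.25 to 10.57 in YFP-positive and 7.37 to 8.07 in YFP-negative samples. Of the 10 macrophage markers 2 rose, Vcam1 and Mertk, and 5 had means at or below the median of all values. The median difference of the 10 was -0.05, and 4 of them had a higher mean in YFP-positive samples. Vcam1 measured 10.07, 10.4 and 9.88 in YFP-positive and 4.06, 4.06 and 4.01 in YFP-negative samples. It thus made up most of the YFP-positive sums, which do not stand for the list as a whole. The part of these markers in the results was not tested. Neutrophil sums were 13.47 to 14.52 against 12.44 to 14.31, erythroid sums 7.52 to 8.88 against 7.50 to 8.17 and megakaryocyte sums 7.72 to 8.4 against 7.85 to 8.24. Of these 10, 6 and 6 genes, 0 passed limma's test (2, 1 and 1 with an unadjusted p below 0.05, 0 without moderation).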

How the data were processed

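RNA of 6 LSK samples (500 pg each) was amplified and hybridised to 1 array per sample, per the labels. The deposited table holds log2 expression values of 41345 probes, from 1.53 to 13.7, with array medians of 3.62 to 3.68; that the scale is log2 was read from the values. The submitters' processing notes name Partek. How background was corrected, probes summarised and arrays normalized is not given in the sources used here. No detection calls were used, so the number of arrays and the signal over background limit the precision.

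The probe annotation named 25335 probes, 23521 with 1 symbol, 1814 with several, and 16010 probes were unnamed. Each gene took its probe with the highest mean, giving 22180 genes. Differences were fitted with limma 3.58.1 in R 4.3.3 (lmFit and eBayes on population). Tests were two-sided, and p-values were adjusted across the 22180 genes by Benjamini-Hochberg, with a threshold of 0.05. The fit was tested on simulated data. Intervals are 95% and moderated.

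The members and lists were chosen with earlier results of these data known. Named were all members, list genes past the threshold (up to 8) and the next 2, all CDK inhibitors, Mir335, and the 5 genes most correlated with Cdkn1c; further genes named as neighbours, of a domain or in the lists of markers, and Igf2, Kcnq1, Kcnq1ot1, Phlda2 and Airn, fall outside this rule. Alternatives changed the probe rule, scaling, low-value filter, variance model, replicate block and left-out array.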

Additional observations from a re-analysis of the deposited data

How the results depend on the processing

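Alternatives were the mean of a gene's probes, quantile normalization, median centring, a filter on low values, a variance trend, no moderation of the variance, the replicate number as a block, and each array left out. The 9 imprinted growth genes kept their direction in the 7 alternatives that used all arrays and gave them a value. Of the genes that had risen, 1 passed with the variance trend and 1 with the replicate block, Igf2r in both cases (adjusted p = 0.0256 and 0.0386), and 0 without moderation. Cdkn1c then had adjusted p = 0.0639, 0.0630 and 0.157, and Igf2r 0.0847 without moderation. The count ran from 1 to 2 over the fits that left out an array. The low-value filter removed Dlk1, Meg3 and Plagl1.

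Without moderation 180 of all genes passed (145 higher, 35 lower), and with the replicate block 580. Leaving out an array gave 430 to 1185. Further imprinted genes past the threshold were 0 without moderation, 2 with the replicate block and 1 to 3 with an array left out. The block's 2 were higher and 0 lower: Cd81 (adjusted p = 0.0340) and Tfpi2 (0.0496) passed, and Atp10a (0.0630), Ppp1r9a (0.0619) and Ube3a (0.127) lost their calls. It also ended those of Igf1 (0.0521) and Tet1 (0.0668). Growth factor genes were 1 without moderation and 3 with an array left out. Imprint maintenance genes were 6 with the low-value filter (1 higher, 5 lower), 0 without moderation and 1 to 4 with an array left out. CDK inhibitors other than Cdkn1c were 0 throughout.

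The sign of Cdkn1a turned to 0.05 with quantile normalization. With an array left out, differences ran from -0.08 to 0.09 for Meg3, -0.47 to 0.18 for Cdkn1a, -0.09 to 0.07 for Cdkn2a, -0.07 to 0.32 for Cdkn2b and -0.20 to 0.41 for Cdkn2d. The causes were not tested. Same-numbered arrays correlated at 0.098, 0.081 and 0.167 in their deviations from the group means, and differently numbered ones at -0.111 to 0.03. Each array correlated best with its own number. These values do not decide whether the numbers pair the samples, and the sources used here do not say. The main fit uses no pairing, and the fit with the replicate block is given beside it. Low signal limits Dlk1, Meg3, Plagl1, Cdkn2a, Phlda2, Airn and most hairpins. It also limits, in part, Peg3 and Grb10, which had arrays near or below the median of all values. In all of these genes a difference may be understated.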

Other observations

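Values of some imprinted genes and a hairpin outside the set are given here for each array. Mcts2, a paternally expressed retrogene within an intron of H13, measured 6.98, 5.46 and 4.37 in YFP-positive replicates 1, 2 and 3 and 4.38, 4.67 and 4.49 in YFP-negative samples. Its host gene H13 measured 6.27, 6.21 and 6.73 against 7.14, 7.13 and 6.43. The differences were 1.09 and -0.50, and neither was past the threshold of limma's test (adjusted p = 0.469 and 0.393).

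The Mir483 hairpin, which lies in an intron of Igf2, measured 7.37, 8.45 and 6.41 in YFP-positive and 6.87, 6.27 and 6.59 in YFP-negative samples. YFP-positive replicate 2 was the highest array for Mir483 as it was for Igf2 (4.55), and the difference of 0.83 did not pass (adjusted p = 0.500). Peg13, a non-coding RNA in an intron of Trappc9, measured 6.66, 6.10 and 6.05 against 6.80, 7.26 and 6.76, with no overlap between the populations and a difference of -0.67 (adjusted p = 0.192). These genes were picked after their values were seen.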
